A study of Homo sapiens with 6 samples.

Results

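The nucleolus is where ribosomes are made, and this account follows 50 listed genes, nearly all of them for factors that act there, in a human myeloma cell line, MM.1S, under the kinase inhibitor enzastaurin. The genes were listed by name and function, and each was read from the probe set with the highest mean log2 signal among those annotated with that symbol alone. In all, 41 of the 50 had such a probe set, and all 41 were among the 6838 genes that passed the intensity filter. The other 9, NOP56, NOP58, DKC1, BOP1, EBNA1BP2, GNL3, DDX18, PPAN and POLR1A, were not analysed here. A set of MM.1S cells had 3, 6 or 12 h of enzastaurin, which was designed against the beta form of protein kinase C, and the other set was left untreated and taken at the same times. Each combination was measured on a single array, which makes 3 enzastaurin and 3 untreated arrays. The dose is not given in the sources used here.

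RNA polymerase I transcribes ribosomal DNA into a long precursor RNA in the nucleolus. Small nucleolar ribonucleoproteins (snoRNPs) modify and help to fold this precursor, and the small subunit processome and a series of large subunit particles cleave and assemble it into the subunits of the ribosome. Plasma cells and myeloma cells make large amounts of secreted protein, and many genes of ribosome production are known targets of the transcription factor MYC. The 41 measured genes comprised 6 snoRNP proteins, 13 small subunit factors, 11 large subunit factors, 7 proteins of RNA polymerase I transcription and 4 other genes.

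Every level below is a MAS5 intensity on a linear scale, and every log2 ratio is enzastaurin over untreated at 1 time. Median intensities of the arrays lay between 62.2 and 67.6. All 8 markers of plasma or myeloma cells passed the intensity filter, with summed intensities of 12823 to 16774 on enzastaurin arrays and 16759 to 21522 on untreated arrays. None of 8 monocyte markers and 1 of 8 T or NK cell markers passed. Monocyte markers summed to 178 to 200 on enzastaurin arrays and 155 to 215 on untreated arrays, and T or NK cell markers to 261 to 350 on enzastaurin arrays and 267 to 284 on untreated arrays. The control probe sets for 18S ribosomal RNA varied widely within both groups, with mean log2 intensities of 9.99, 3.79 and 3.02 on enzastaurin arrays at 3, 6 and 12 h, and 3.39, 11.98 and 9.29 on untreated arrays. First-strand synthesis was primed with oligo-dT, per the labels. The log2 ratio of the 3' to the 5' ACTB control was 2.0, 0.57 and 0.86 on enzastaurin arrays and 1.89, 1.16 and 1.60 on untreated arrays.

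After 12 h of enzastaurin, transcripts of the nucleolar factors lay lower than in untreated cells almost throughout. At that time 39 of 41 genes had a log2 ratio under 0, against 61.1 percent of all kept genes. The exceptions were NOP10 and RRP12. The median ratio of the 41 genes was -0.77, a 1.70-fold lower level, where the median of all kept genes was -0.18. Of the 41, 11 were at least 2-fold lower, against 10.4 percent of all kept genes, and 0 were at least 2-fold higher, against 3.88 percent. Relative to the kept genes, with their medians made equal on all arrays, 36 genes lay under 0, the median was -0.57 and 6 genes were at least 2-fold lower. Shares of all kept genes were not counted with this scaling, and the percentages above do not apply to it. In bulk RNA, fewer cells with a transcript and less of it in each cell cannot be told apart. With 1 array on each side, the ratio at a single time has no replicate error and no test.

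The earlier times differed from this. At 3 h the 41 genes were split, 19 under 0 against 53.6 percent of all kept genes, with a median of 0.02 against -0.04. None was at least 2-fold lower (all kept genes 2.65 percent), and SRM alone was at least 2-fold higher (1.89 percent). At 6 h 25 genes lay under 0 against 45.6 percent, and the median was -0.16 against 0.06. TCOF1 and SRM were at least 2-fold lower (all kept genes 3.22 percent) and none was at least 2-fold higher (5.6 percent). In 37 of 41 genes the ratio at 12 h lay below that at 6 h, against 64.5 percent of all kept genes, and in 36 below that at 3 h, against 57 percent. Lower at all 3 times were 12 of the 41 genes, against 14.2 percent of all kept genes.

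**Figure D1:**
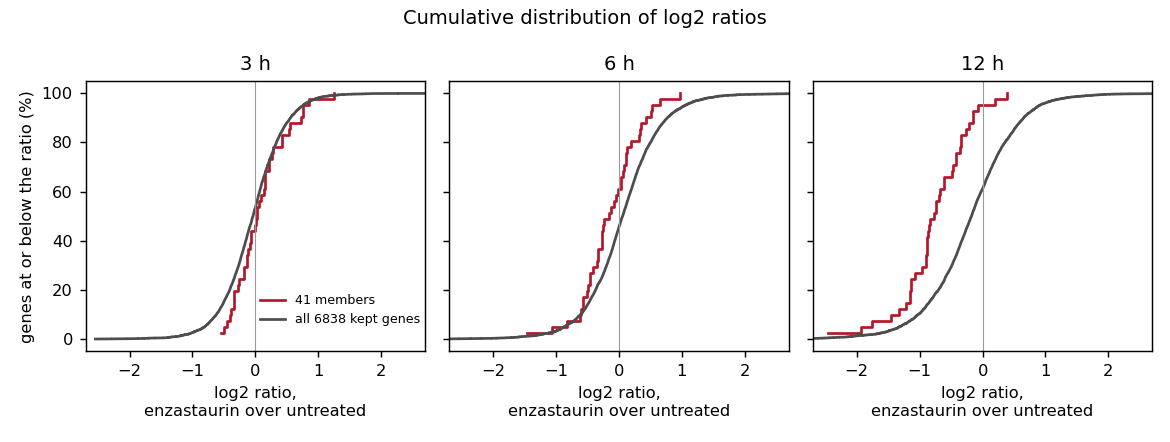
Cumulative percentage of genes (vertical axis) at or below a log2 ratio of enzastaurin over untreated (horizontal axis) at 3, 6 and 12 h, for the 41 nucleolar factors in red and all 6838 kept genes in grey. The curves lie close together at 3 h, and at 12 h the red curve lies to the left, with medians of -0.77 and -0.18.

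The arrays behind the ratios were followed one arm at a time. On enzastaurin arrays the median of the 41 genes differed from its 3 h level by -0.17 on the log2 scale at 6 h and by -0.63 at 12 h, where all kept genes had 0.04 and -0.08. On untreated arrays the same medians were -0.02 and 0.16, and those of all kept genes -0.07 and 0.03. The 12 h enzastaurin array was the lowest of all 6 arrays for 33 of 41 genes, against 30.3 percent of all kept genes. Set against each other array in turn, it was lower for 39 of 41 genes against enzastaurin at 3 h (all kept genes 55.5 percent) and for 39 against enzastaurin at 6 h (60.4 percent). It was lower for 36 against untreated cells at 3 h (57.9 percent) and for 36 against untreated cells at 6 h (54.9 percent). All these counts rest on the 1 array of 12 h enzastaurin, where the 18S ribosomal RNA intensity was 3.02 against 9.29 in its untreated partner. The part of that difference in the 12 h ratios was not tested.

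**Figure D2:**
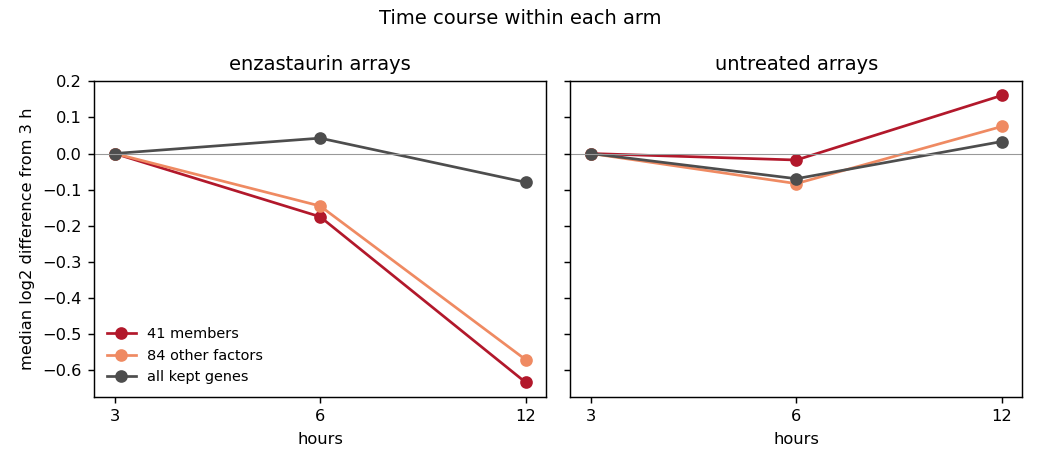
Median log2 difference from the 3 h array of the same arm (vertical axis) at 3, 6 and 12 h, on enzastaurin arrays at the left and untreated arrays at the right, for the 41 nucleolar factors, 84 other ribosome biogenesis factors and all kept genes. The nucleolar factors reach -0.63 at 12 h with enzastaurin and 0.16 in untreated cells.

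Fits with limma across all 6838 genes asked which single genes changed, with Benjamini-Hochberg adjustment over all of them. In the average over the 3 times limma called 0 of the 41 genes, while 2, RRS1 and TCOF1, lay lower at an unadjusted p under 0.05, against 3.48 percent of all kept genes. The smallest adjusted p was 0.427, for TCOF1. The same fit called 0.0292 percent of all kept genes lower and 0.0292 percent higher. A fit restricted to the 6 h and 12 h arrays, here the later-pairs fit, passed 3 of 41 genes, all lower, against 2.08 percent of all kept genes called lower and 1.54 percent higher. These were BYSL, SRM and TCOF1. Earlier results of these data had shown 6 h and 12 h to resemble each other more than 3 h. The later-pairs fit was chosen with that known, which favours its p-values. In the average over the 3 times BYSL and SRM had adjusted p of 0.980 and 0.988 in limma. The third fit asked whether the log2 ratio changed per doubling of hours, and called 2 of 41 downward, BYSL and SRM, against 0.921 percent of all kept genes downward and 0.512 percent upward. Among the 3 enzastaurin and 3 untreated arrays, 6 of 41 genes did not overlap, against 10.6 percent of all kept genes. RRS1, TCOF1, DDX10, GAR1 and NHP2 lay lower with enzastaurin in this way, and RRP12 higher. NHP2 was parted only by 3415.6 against 3419.5. Second probe sets of TCOF1 and RRP12 had 12 h log2 ratios of the other sign (2.02 and -1.42).

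**Figure D3:**
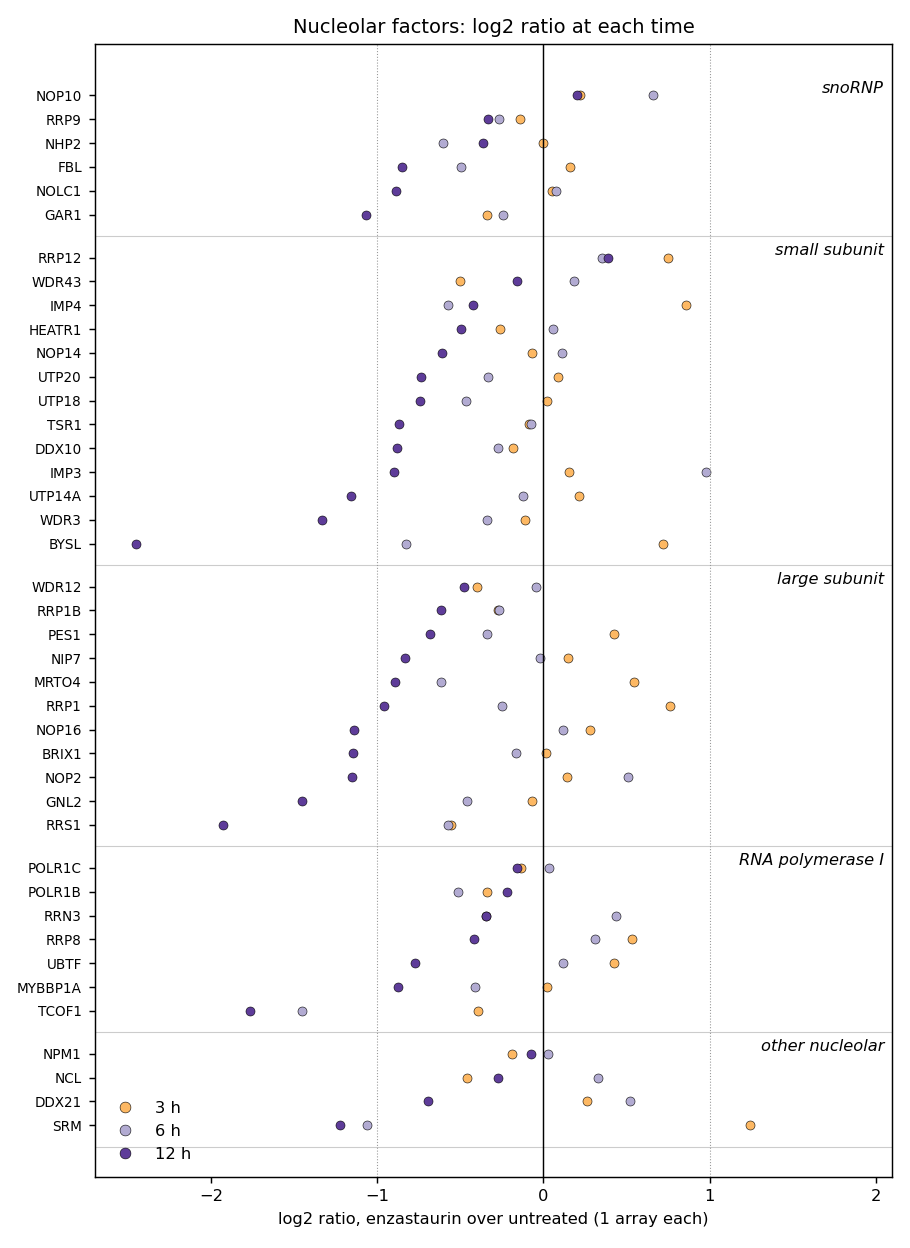
Log2 ratio of enzastaurin over untreated (horizontal axis, 1 array on each side) for each of the 41 measured genes, grouped by role, at 3 h in orange, 6 h in light purple and 12 h in dark purple, with dotted lines at 2-fold. Dark points lie left of 0 for 39 genes, and BYSL is the lowest of them at -2.45.

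Small subunit factors assemble on the nascent precursor RNA as the processome. Of 13 measured, 12 were lower at 12 h, with a median of -0.74 and a range from -2.45 to 0.39. BYSL, or bystin, acts in the maturation of the small subunit. It had intensities of 177, 96.1 and 45.7 in enzastaurin cells at 3, 6 and 12 h, against 107, 171 and 249 in untreated cells. The enzastaurin arrays ran downward with time and the untreated arrays upward. The groups overlapped, and the log2 ratios were 0.72, -0.83 and -2.45. BYSL fell in the later-pairs fit (log2 -1.64, SE 0.41, adjusted p = 0.0301, n = 2 pairs in limma), and its slope per doubling of hours was -1.58 (SE 0.39, adjusted p = 0.00783). The later-pairs call was lost when the variance prior had no intensity trend (adjusted p = 0.0667 in limma). The slope call was lost under 2 of the other scalings, given with SRM. Monocyte markers, which none of these cells should hold, gave intensities of 1.87 to 54.8, so an intensity of 45.7 cannot fix the size of the 12 h ratio.

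WDR3, a processome subunit, had intensities of 276, 199 and 135 in enzastaurin cells and 299, 251 and 340 in untreated cells. Each enzastaurin array lay below its untreated partner, by most at 12 h (log2 ratio -1.33). UTP14A, which helps to release the U3 RNA from the precursor in yeast, had 349, 201 and 151 in enzastaurin cells and 300, 219 and 336 in untreated cells. The 6 h and 12 h enzastaurin arrays lay below every untreated array, by little at 6 h, and the 12 h ratio was -1.16. UTP18 had 741, 634 and 542 in enzastaurin cells and 731, 873 and 905 in untreated cells, with log2 ratios of 0.02, -0.46 and -0.74. None of these passed a fit (adjusted p 0.247 to 0.412 in limma, later-pairs fit).

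The remaining small subunit factors had 12 h ratios of -0.90 for IMP3, -0.88 for the helicase DDX10, -0.87 for TSR1, -0.74 for UTP20 and -0.61 for NOP14. HEATR1 had -0.49, IMP4 -0.42 and WDR43 -0.16. IMP3 and IMP4, which bind U3 together with MPHOSPH10, had opposite ratios at 6 h (0.98 and -0.58). The IMP3 value at 6 h goes with a low untreated level of 556, where the other untreated arrays had 1090 and 1218. The high IMP4 ratio of 0.86 at 3 h likewise goes with an untreated level of 290, against 575 and 516 at 6 and 12 h. RRP12, which takes part in the export of the pre-ribosomal subunits, was the exception, with 133, 130 and 142 in enzastaurin cells and 79.0, 102 and 109 in untreated cells. The groups did not overlap in RRP12, and a second probe set of the gene had ratios of 0.94, -0.56 and -1.42. That probe set had 35.1 in enzastaurin cells at 12 h, as low as some monocyte marker intensities, so the size of its -1.42 is not fixed.

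Large subunit factors were the group with the lowest median at 12 h, -0.96, and all 11 measured were lower, from -0.48 to -1.93. The 12 h enzastaurin array was the lowest of the 6 for each of the 11. RRS1, which recruits the 5S RNA particle to the pre-ribosome in yeast, had 453, 452 and 180 in enzastaurin cells and 665, 672 and 684 in untreated cells. The untreated arrays differed little and all lay above every enzastaurin array, with log2 ratios of -0.55, -0.57 and -1.93. RRS1 did not pass (log2 -1.25, SE 0.35, adjusted p = 0.0611 in limma, later-pairs fit). GNL2, a nucleolar GTPase, had 724, 440 and 254 in enzastaurin cells and 759, 605 and 696 in untreated cells, and a 12 h ratio of -1.45. MRTO4, which holds the place of a stalk protein in the assembling subunit, had 382, 228 and 171 in enzastaurin cells and 262, 349 and 318 in untreated cells. Its ratio was 0.54 at 3 h and below 0 after that, -0.61 and -0.89. BRIX1 had 463, 410 and 235 in enzastaurin cells and 459, 459 and 521 in untreated cells, so that the later enzastaurin arrays lay below every untreated array, with ratios of -0.16 at 6 h and -1.14 at 12 h.

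Of the other large subunit factors, NOP2, an RNA methyltransferase, had a 12 h ratio of -1.15 and NOP16 of -1.14. RRP1 had -0.96, NIP7 -0.83 and RRP1B -0.62. PES1 and WDR12, partners in the PeBoW complex, had -0.68 and -0.48. NOP2 lay higher at 6 h (0.51), with an untreated level of 576 at that time against 817 and 860 on the other untreated arrays.

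**Figure D4:**
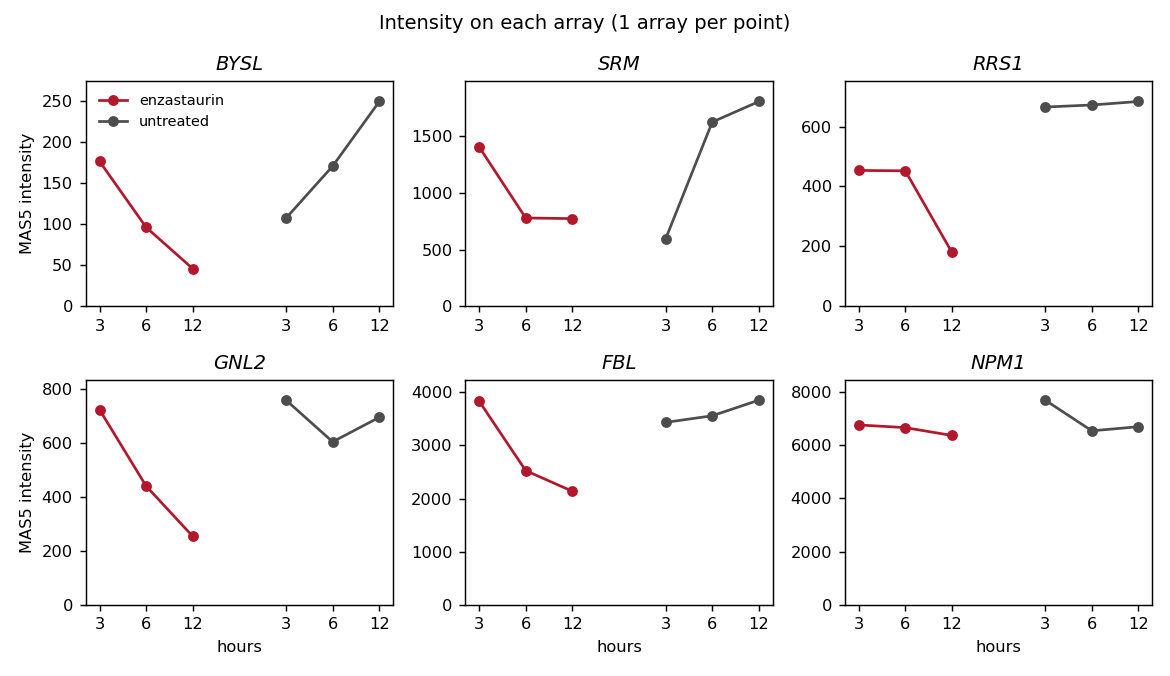
MAS5 intensity (vertical axis, from 0) on each of the 6 arrays for BYSL, SRM, RRS1, GNL2, FBL and NPM1, with enzastaurin at 3, 6 and 12 h at the left of each panel in red and untreated at the same times at the right in grey. BYSL reaches 45.7 at 12 h with enzastaurin against 249 untreated, while NPM1 stays between 6368 and 7697 on all arrays.

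The snoRNP proteins had a median of -0.61 at 12 h, and 5 of 6 were lower. FBL, or fibrillarin, is the RNA methyltransferase of box C/D snoRNPs. It had 3834, 2525 and 2137 in enzastaurin cells and 3433, 3558 and 3852 in untreated cells, so both later enzastaurin arrays lay below every untreated array. Its log2 ratios were 0.16, -0.49 and -0.85 (later-pairs fit -0.67, SE 0.22, adjusted p = 0.101 in limma). GAR1, NHP2 and NOP10 are core proteins of the box H/ACA snoRNPs, which guide pseudouridylation. GAR1 had 563, 498 and 277 in enzastaurin cells and 712, 589 and 581 in untreated cells, without overlap and with a 12 h ratio of -1.07. NHP2 had 3416, 2644 and 2807 in enzastaurin cells and 3419, 4025 and 3613 in untreated cells, where the 3 h arrays differed by less than any other pair. NOP10, in the same complex, went the other way, with 2136, 2850 and 2583 in enzastaurin cells and 1831, 1808 and 2249 in untreated cells. Its ratios were 0.22, 0.66 and 0.20, and it did not pass (adjusted p = 0.389 in limma, later-pairs fit). NOLC1, a chaperone of snoRNPs, had -0.89 at 12 h, and -0.37 and -1.003 in its other probe sets. The alternative with the median over probe sets gave -0.37, the ratio of the NOLC1 probe set of middle intensity. The U3 protein RRP9 had -0.34 at 12 h.

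The proteins of RNA polymerase I transcription were nearer to the background, with a median of -0.41 at 12 h, although all 7 lay under 0. TCOF1, or treacle, supports transcription of ribosomal DNA. It had 355, 135 and 120 in enzastaurin cells and 466, 371 and 406 in untreated cells, and fell in the later-pairs fit (log2 -1.61, SE 0.34, adjusted p = 0.0108 in limma). A second TCOF1 probe set of nearly equal signal had ratios of -1.48, -0.03 and 2.02, so the direction of this gene depends on the probe set. With every kept probe set tested, the second one had an upward slope of 1.75 (adjusted p = 0.00132 in limma). MYBBP1A had 425, 330 and 224 in enzastaurin cells and 418, 439 and 412 in untreated cells, parted at 6 and 12 h. UBTF, which binds ribosomal DNA and opens it for the polymerase, had 90.6, 77.3 and 50.4 in enzastaurin cells and 67.6, 71.1 and 86.0 in untreated cells. Its 12 h ratio was -0.77, and a second probe set had 0.67, with 52.4 in untreated cells at 12 h. The 50.4 and the 52.4 at 12 h are as low as some monocyte marker intensities, so the size of neither ratio is fixed. The first ratio is also the median of the 41 genes. The ratios next to it in order were -0.74 and -0.83. The polymerase subunits POLR1B and POLR1C had 12 h ratios of -0.22 and -0.16. A second POLR1C probe set of nearly equal signal had -1.27, so the size of this gene's ratio depends on the probe set. POLR1B had 105, 90.7 and 89.4 in enzastaurin cells and 133, 129 and 104 in untreated cells, and only the 3 h enzastaurin and 12 h untreated arrays crossed. RRN3, the initiation factor that joins the polymerase to the promoter, had -0.34, a value that near-identical copies of the gene make uncertain, and RRP8 had -0.41.

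Among the abundant nucleolar proteins, NPM1, a chaperone of histones and ribosomal proteins, had 6764, 6663 and 6368 in enzastaurin cells and 7697, 6543 and 6697 in untreated cells. Its 12 h ratio was -0.07, and -0.50 and -0.43 in its other probe sets. The value of -0.07 turned to 0.12 once kept genes had equal medians, and NPM1 has near-identical pseudogene copies, so its level is uncertain. NCL, or nucleolin, had 2494, 3423 and 2470 in enzastaurin cells and 3425, 2728 and 2982 in untreated cells, with ratios of -0.46, 0.33 and -0.27. The helicase DDX21 had 3679, 3553 and 2190 in enzastaurin cells and 3062, 2477 and 3538 in untreated cells, and a 12 h ratio of -0.69. None of these 3 passed (smallest adjusted p 0.919 in limma, later-pairs fit).

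SRM, spermidine synthase of the polyamine pathway, is a metabolic enzyme and not a ribosome factor. It had 1409, 780 and 774 in enzastaurin cells and 594, 1628 and 1809 in untreated cells. The 3 h untreated array was the lowest of the 6, and the ratio was 1.25 at 3 h, -1.06 at 6 h and -1.23 at 12 h. SRM fell in the later-pairs fit (log2 -1.14, SE 0.27, adjusted p = 0.0219 in limma), a 2.21-fold lower level. This call was lost when the variance prior had no intensity trend (adjusted p = 0.0981 in limma). Its slope per doubling of hours was -1.24 (SE 0.31, adjusted p = 0.0137). For both SRM and BYSL the 3 h untreated array was the lowest of the 3 untreated arrays, and the ratio was above 0 at 3 h alone. Neither slope passed with quantile normalization (adjusted p = 0.182 for SRM and 0.112 for BYSL in limma) or with equal medians of the kept genes (0.355 and 0.303). The slope fit then called 0.102 percent and 0 percent of all kept genes. With equal medians of all probe sets both slopes passed (adjusted p = 0.00164 for SRM and 0.00291 for BYSL in limma). The slope fit then called 2.44 percent of all kept genes.

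Probe sets of the same gene were compared where the array had several. Beside the 41 probe sets used there were 19 others, for 13 genes; 13 of the 19 passed the intensity filter. At 12 h 11 of these 13 were lower, and 10 had the sign of the probe set used. The 3 that did not were those of TCOF1, UBTF and RRP12. The second POLR1C probe set was further down at 12 h (-1.27), and so were others of TSR1 (-1.46), NOP16 (-1.26) and NOLC1 (-1.003). Others were less far down, with -0.37 for a further NOLC1 probe set, -0.43 for a further TSR1 probe set and -0.30 for RRP1B. Of the 6 weaker probe sets below the filter, 4 were lower.

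**Figure D5:**
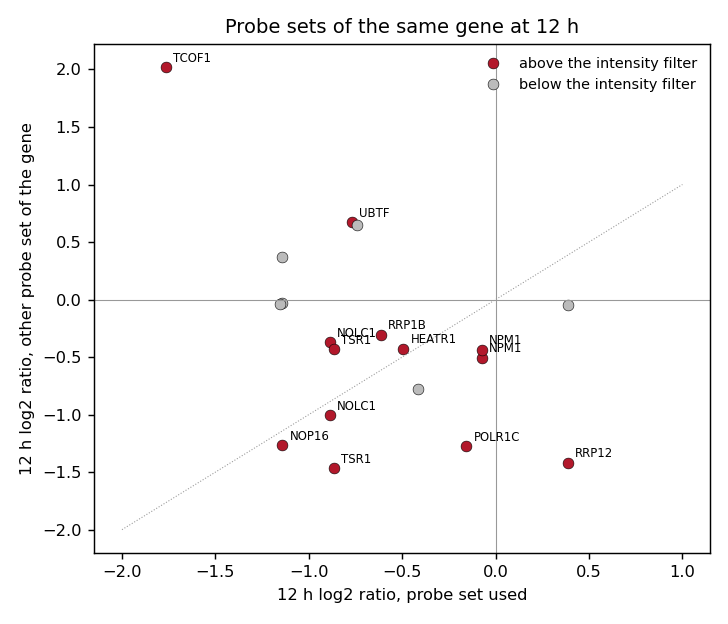
Log2 ratio at 12 h of each further probe set (vertical axis) against that of the probe set used for the same gene (horizontal axis), in red above the intensity filter and in grey below it, with the line of equality dotted. Points fall mostly in the lower left, and TCOF1 stands apart at -1.76 and 2.02.

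Other ribosome biogenesis factors, a list of 119 genes without any of the 50, were read in the same way. Of 84 measured, 73 were lower at 12 h (all kept genes 61.1 percent), with a median of -0.56, and 18 were at least 2-fold lower (all kept genes 10.4 percent). The medians were -0.04 at 3 h and -0.09 at 6 h. In the later-pairs fit 3 fell and 0 rose, against 2.08 percent and 1.54 percent of all kept genes. All 3 are among the 26 small subunit factors, too few calls to set that group apart. UTP3 had ratios of -0.67, -1.01 and -2.47, PWP2 had 0.78, -1.20 and -2.13, and NOL6 had 0.06, -0.99 and -1.98 (adjusted p 0.00932, 0.0104 and 0.0301 in limma). By kind, the median at 12 h was -0.72 for 26 small subunit factors, -0.50 for 34 large subunit factors, -0.46 for 12 further polymerase subunits and factors, and -0.41 for 12 proteins of the RNA exosome and exonucleases.

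The promoters of the measured genes were searched for the canonical E-box CACGTG, a sequence that MYC and MAX bind. MYC itself had intensities of 1212, 1974 and 500 in enzastaurin cells and 1911, 2847 and 2124 in untreated cells, and fell in the later-pairs fit (log2 -1.31, SE 0.31, adjusted p = 0.0238 in limma). MYC did not pass in the fit of all pairs (adjusted p = 0.427 in limma), and its values under the alternatives were not read. Windows of 300 bases that end 50 bases into the gene, from RefSeq (GRCh38.p14), were found for 36 of the 41 genes. The motif, which reads the same on both strands, was in 16 of the 36 windows (44.4 percent), in 29.7 percent of 74 windows of the other factors, in 10.8 percent of 5702 windows of kept genes and in 7.43 percent of all 27305 windows. In 11 of the 36 (30.6 percent) it lay in the 50 bases after the start, where 16.2 percent of the other factors and 1.44 percent of kept genes had it. These counts were made after its positions had been seen. The 12 h ratios of genes with and without the motif had medians of -0.79 for 16 genes and -0.73 for 20. A match of letters is not a binding site, and no binding was measured here.

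Shown here are the windows of BYSL and SRM, the genes called in both the later-pairs and the slope fit, of GNL2, among the lowest at 12 h, and of FBL, on the gene's strand with the E-box in capitals. They lie at chr6:41921249-41921548, plus strand (BYSL), chr1:11059969-11060268, minus strand (SRM), chr1:37595888-37596187, minus strand (GNL2) and chr19:39846330-39846629, minus strand (FBL) of GRCh38.p14. The first base of the motif lies 28 bases after the start in BYSL, 3 in GNL2 and 6 in FBL, and at -199 in SRM.
BYSL: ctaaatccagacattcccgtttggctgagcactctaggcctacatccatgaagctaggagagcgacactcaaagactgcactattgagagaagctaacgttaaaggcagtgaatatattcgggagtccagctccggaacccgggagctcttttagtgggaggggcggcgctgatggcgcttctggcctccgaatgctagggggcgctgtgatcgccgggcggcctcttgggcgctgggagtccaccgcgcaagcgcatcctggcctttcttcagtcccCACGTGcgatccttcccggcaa
SRM: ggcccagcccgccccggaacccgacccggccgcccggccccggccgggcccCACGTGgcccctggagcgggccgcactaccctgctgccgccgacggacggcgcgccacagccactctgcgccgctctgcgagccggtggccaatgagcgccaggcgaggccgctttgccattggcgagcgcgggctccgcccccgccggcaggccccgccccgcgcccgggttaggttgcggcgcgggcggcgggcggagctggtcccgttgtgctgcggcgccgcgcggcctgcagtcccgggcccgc
GNL2: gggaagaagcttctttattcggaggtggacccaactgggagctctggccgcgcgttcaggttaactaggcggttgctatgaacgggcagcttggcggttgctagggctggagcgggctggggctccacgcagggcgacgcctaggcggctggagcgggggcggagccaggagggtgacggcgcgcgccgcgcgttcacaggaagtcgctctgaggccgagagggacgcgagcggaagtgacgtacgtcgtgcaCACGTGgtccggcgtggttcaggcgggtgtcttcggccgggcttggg
FBL: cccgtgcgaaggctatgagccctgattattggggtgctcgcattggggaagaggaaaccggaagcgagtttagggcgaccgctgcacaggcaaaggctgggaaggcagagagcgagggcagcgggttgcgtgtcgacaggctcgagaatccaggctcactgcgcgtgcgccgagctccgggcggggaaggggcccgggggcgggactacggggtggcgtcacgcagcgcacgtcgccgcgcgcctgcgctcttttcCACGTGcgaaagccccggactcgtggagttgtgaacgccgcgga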

How the data were processed

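RNA of MM.1S cells was measured on 6 arrays, 1 for each treatment (enzastaurin or untreated) and time (3, 6 or 12 h). What the authors deposited is an intensity for each probe set on a linear scale, and the submitters' processing notes name MAS5. Its version and scaling target are not stated there. No depth applies, and the number of arrays limits the precision.

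Of 22277 probe sets, 62 were controls and 19064 of the rest were annotated with 1 symbol, updated through Entrez identifiers in RefSeq (GRCh38.p14). The authors' scaling was kept. Intensities were floored at 1 and log2 transformed. Those whose mean log2 intensity ranked in the upper 50 percent (geometric mean of 63.3 or more) were kept, then the highest for each gene, 6838 genes in all.

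Fits used limma 3.58.1 in R 4.3.3 (lmFit, eBayes with an intensity trend) with time as a block, adjusted by Benjamini-Hochberg over all 6838 genes, with calls at an adjusted p under 0.05. The treatment fit used 3 pairs (2 residual degrees of freedom, prior 9.26), the later-pairs fit the 6 h and 12 h arrays (1 and 16.9) and the slope fit all 6 arrays with 1 residual degree of freedom and an infinite prior, so its errors come from other genes. Nothing in the labels says that arrays came from separate cultures, so the spread behind a p-value is that of these arrays and may be technical. The fits were also run on simulated data with independent noise of the same spread for every gene, which these arrays need not have. That run checks the code and not the p-values given here.

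The genes, role groups, lists and the fit of the later pairs were chosen with earlier results of these data known. Values on every array are given for genes called in a fit, for the 4 genes of each role group with the largest mean ratio in size over 6 and 12 h, and for NCL, NPM1, FBL and UBTF. Other array values, MYC and the named other factors were added after values were seen. Alternatives changed scaling, probe set choice, pseudocount (16), filter, variance prior, time block, a ribosomal RNA covariate and the pairs used.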

Additional observations from a re-analysis of the deposited data

Results flagged for a closer look

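The log2 ratio of 2 genes differed between times by a test of the difference itself. BYSL had a slope of -1.58 per doubling of hours (SE 0.39, adjusted p = 0.00783 in limma), with log2 ratios of 0.72, -0.83 and -2.45 at 3, 6 and 12 h. SRM had a slope of -1.24 (SE 0.31, adjusted p = 0.0137 in limma), with 1.25, -1.06 and -1.23. Neither passed with quantile normalization (adjusted p = 0.112 for BYSL and 0.182 for SRM in limma) or with equal kept-gene medians (0.303 and 0.355). With these scalings the slope fit called 0.102 percent and 0 percent of all kept genes. Both passed with equal medians of all probe sets (0.00291 for BYSL and 0.00164 for SRM in limma), where it called 2.44 percent. The 18S ribosomal RNA intensity changed sides too, above that of untreated cells at 3 h and below it later, and its part in these slopes was not tested.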

How the results depend on the processing

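Among alternatives for the counts and medians of the nucleolar factors, 100 values stayed within 1.5 times (counts) or 0.41 (medians, their SD over the 3 times) of the value reported, and 7 did not. Leaving out the filter cannot change the ratios of these genes, so part of the 100 could not move. The tolerance of 0.41 is also wide beside a 12 h median of -0.77. In the treatment fit 0 genes passed under every alternative, the ribosomal RNA covariate included, except when a pair was left out. Leaving out 1 pair gave 0 to 3 genes (3 without the 3 h pair, which is the later-pairs fit). Of all kept genes the treatment fit called 0.0585 percent in the main setting and 1.08 percent with the covariate. Without the 3 h pair it called 3.61 percent. The later-pairs fit called 5 genes when kept genes had equal medians. The share of all kept genes called, lower or higher, then rose to 8.01 percent from 3.61 percent. The same fit called 1 gene, TCOF1, when the variance prior had no intensity trend (all kept genes 1.95 percent). BYSL (adjusted p = 0.0667 in limma) and SRM (0.0981) were lost. The slope fit called 0 of the nucleolar factors with quantile normalization and 0 with equal kept-gene medians. Of all kept genes it then called 0.102 percent and 0 percent, against 1.43 percent in the main setting. With equal medians of all probe sets it called 2 of the nucleolar factors and 2.44 percent of all kept genes. The count at least 2-fold lower at 12 h was 7 with quantile normalization and 6 with equal kept-gene medians. The share of all kept genes at least 2-fold lower was not counted with these scalings. The count lower at 12 h was 36 to 39 in all alternatives, those added after seeing the data included, and its median was -0.81 to -0.57. Without the 12 h pair the median of the mean ratios was -0.06, against -0.25 with all pairs. With the median over probe sets TCOF1 turned to 0.13 at 12 h, and its call in the later-pairs fit was lost (adjusted p = 0.714 in limma). None of the 3 calls of the later-pairs fit thus held under every alternative. Intensities near those of monocyte markers, as in BYSL at 12 h, limit the size of a ratio.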
